A study of Mus musculus with 6 samples.

Results

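The genes described here are the ligands and receptors of the interleukin-1 (IL-1) family. A list of 10 family genes was set by name, 4 ligands and 6 receptor chains, and each was read from the probe set that the platform annotation assigns to that gene alone. Where a gene had more than 1 such probe set, the one with the highest mean over the 6 arrays was used. Of the 10 genes 9 were measured, among 22180 genes in all: the ligands Il1a, Il1b, Il1rn and Il18 and the receptor chains Il1r1, Il1r2, Il1rap, Il18r1 and Il18rap. Il1rl1, the IL-33 receptor, was not analysed here.

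The cells were CD4+ T cells from mouse spleen, isolated with magnetic beads and stimulated for 12 hours with antibodies to CD3 and CD28 at 1 µg/ml. All groups thus share the stimulation, and no group of resting cells is among them. ConCM cells received control conditioned medium, IL6_ConCM cells the same medium with IL-6 at 20 ng/ml, and PlGFCM cells medium of HEK-293 clones (a human embryonic kidney line) that overexpress PlGF2, a form of placental growth factor. Each group held 2 replicate samples, and strain, age and sex of the mice are not given in the labels. The labels give no amount of PlGF and no other content of the media, so PlGF and other differences between the media cannot be told apart.

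IL-1α (Il1a) and IL-1β (Il1b) are inflammatory cytokines that bind the receptor chain IL-1R1 (Il1r1), which signals together with the accessory chain IL-1RAcP (Il1rap) through MyD88, IRAK kinases and TRAF6 to NF-kappaB. Brakes act outside the cell: the receptor antagonist (Il1rn) occupies IL-1R1 without signalling, and the decoy receptor IL-1R2 (Il1r2) binds IL-1 but lacks a signalling domain. IL-18 (Il18) uses IL-18Rα (Il18r1) and IL-18Rβ (Il18rap). In T cells, IL-1 is known for promoting Th17 cells, the helper cells that make IL-17, and IL-18 for raising interferon gamma in Th1 cells, while myeloid cells are the best known source of IL-1.

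Across the arrays the median log2 level ran from 5.47 to 5.51, and arrays of 1 group correlated at 0.994 to 0.995 over the genes, against 0.993 to 0.995 between groups. PlGFCM replicate 2 stood apart in sex-linked transcripts: Xist, the RNA of the silenced X in females, was at 8.38 (log2) there and of 3.58 to 3.95 on the other 5 arrays, so calls on PlGFCM are also given without this array. The T cell genes measured were high on every array, Cd3e at 11.84 to 12.17 and Cd4 at 11.13 to 11.40. As a reference for probe sets without transcript, the 1105 olfactory receptor genes had a median log2 level of 3.24 and a 95th percentile of 5.38. Il18 lay at a mean of 3.49, above 57.1% of the olfactory receptor genes, and so within that reference. By its mean over the 6 arrays Il1r1 lay above 97.6% of them, but its ConCM arrays, at 5.19 and 5.37, were under that 95th percentile, and the arrays of PlGFCM and IL6_ConCM were above it. The means of the other 7 family genes lay above at least 99.1%.

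In RefSeq (GRCm38.p6) the 2 IL-1 genes Il1a and Il1b are next to each other among the protein-coding genes of chromosome 2, and Il1rn lies elsewhere on that chromosome. On chromosome 1 the receptor genes follow one another in the order Il1r2, Il1r1, Il1rl2, Il1rl1, Il18r1 and Il18rap, with Il1rap on chromosome 16. The promoter windows of Il1a, Il1b and Il1r1 are shown because these were the 3 family genes that passed a test below. Each window runs 5′ to 3′ on the gene's strand, from 250 bases before the transcription start to 50 after it, and Il1r1 has 2 windows in the table. Capitals mark matches to 3 motifs searched on both strands: TGANTCA (AP-1), TTCNNNGAA (STAT) and a kB site, GGG and TTCC with 3 bases between them.

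Il1a, chr2:129309923-129310222, minus strand: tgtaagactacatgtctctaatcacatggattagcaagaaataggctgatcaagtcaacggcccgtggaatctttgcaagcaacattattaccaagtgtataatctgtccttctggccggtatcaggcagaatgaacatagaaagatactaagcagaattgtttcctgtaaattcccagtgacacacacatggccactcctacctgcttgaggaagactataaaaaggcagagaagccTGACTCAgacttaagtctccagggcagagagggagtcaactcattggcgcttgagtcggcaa

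Il1b, chr2:129371090-129371389, minus strand: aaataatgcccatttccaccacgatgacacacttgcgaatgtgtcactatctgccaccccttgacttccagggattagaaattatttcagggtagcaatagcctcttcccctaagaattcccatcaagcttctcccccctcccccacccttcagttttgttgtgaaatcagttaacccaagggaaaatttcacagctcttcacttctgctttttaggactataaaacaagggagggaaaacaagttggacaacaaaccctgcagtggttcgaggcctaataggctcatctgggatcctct

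Il1r1, first window, chr1:40224830-40225129, plus strand: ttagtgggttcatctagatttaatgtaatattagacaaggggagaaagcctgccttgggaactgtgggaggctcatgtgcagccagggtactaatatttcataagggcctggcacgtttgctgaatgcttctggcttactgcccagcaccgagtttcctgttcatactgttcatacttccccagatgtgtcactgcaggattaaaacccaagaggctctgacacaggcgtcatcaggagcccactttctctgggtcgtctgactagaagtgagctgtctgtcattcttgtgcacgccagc

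Il1r1, second window, chr1:40266336-40266635, plus strand: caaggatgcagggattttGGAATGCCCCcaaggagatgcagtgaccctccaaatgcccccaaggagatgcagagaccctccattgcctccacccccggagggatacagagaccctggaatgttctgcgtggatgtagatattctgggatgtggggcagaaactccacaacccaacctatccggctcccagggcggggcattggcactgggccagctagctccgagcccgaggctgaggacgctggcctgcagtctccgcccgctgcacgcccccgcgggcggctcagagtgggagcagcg

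The Il1a window held 1 AP-1 match, TGACTCA, which begins 12 bases before the start. The second Il1r1 window held 1 kB match, GGAATGCCCC on the strand shown, and the Il1b window and the first Il1r1 window held none of the 3 motifs. Of all 32851 promoter windows in the table, 7.81% held the AP-1 motif, 8.3% the STAT motif and 5.56% the kB motif. Among the 16 windows of the 10 family genes, 2 held an AP-1 match (Il1a and Il1rn), 2 a STAT match (Il1r2 and Il18r1) and 4 a kB match (3 windows of Il1rn and 1 of Il1r1). Windows 2 and 3 of Il1rn overlap and hold the same kB site, and by gene each motif was found in 2 of 10. The STAT match of Il1r2 was TTCAAGGAA, 111 bases before its start. A match describes the letters of the window and is no evidence of binding.

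In medium with PlGF, both IL-1 genes and the IL-1 receptor gene rose, and in medium with IL-6 the receptor gene rose. Il1a rose 1.75-fold and Il1b 1.53-fold in PlGFCM over ConCM, and the array level of Il1r1 rose 1.67-fold in PlGFCM and 1.83-fold in IL6_ConCM, from ConCM levels within the range of the olfactory receptor genes, so that the size of these folds in RNA is uncertain. Between PlGFCM and IL6_ConCM, Il1a differed by 1.97-fold. A gene was said to rise or fall where limma's p-value, adjusted after Benjamini and Hochberg over all 22180 genes, was under 0.05. In a sample of mixed cells, a change in the number of cells of a type and a change in RNA per cell cannot be told apart. Each of these calls was lost without at least 1 of the arrays compared, as given with each gene, and none held in a fit without an intensity trend of the variance, or when all 41345 probe sets of the table, named or not, were tested.

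**Figure D1:**
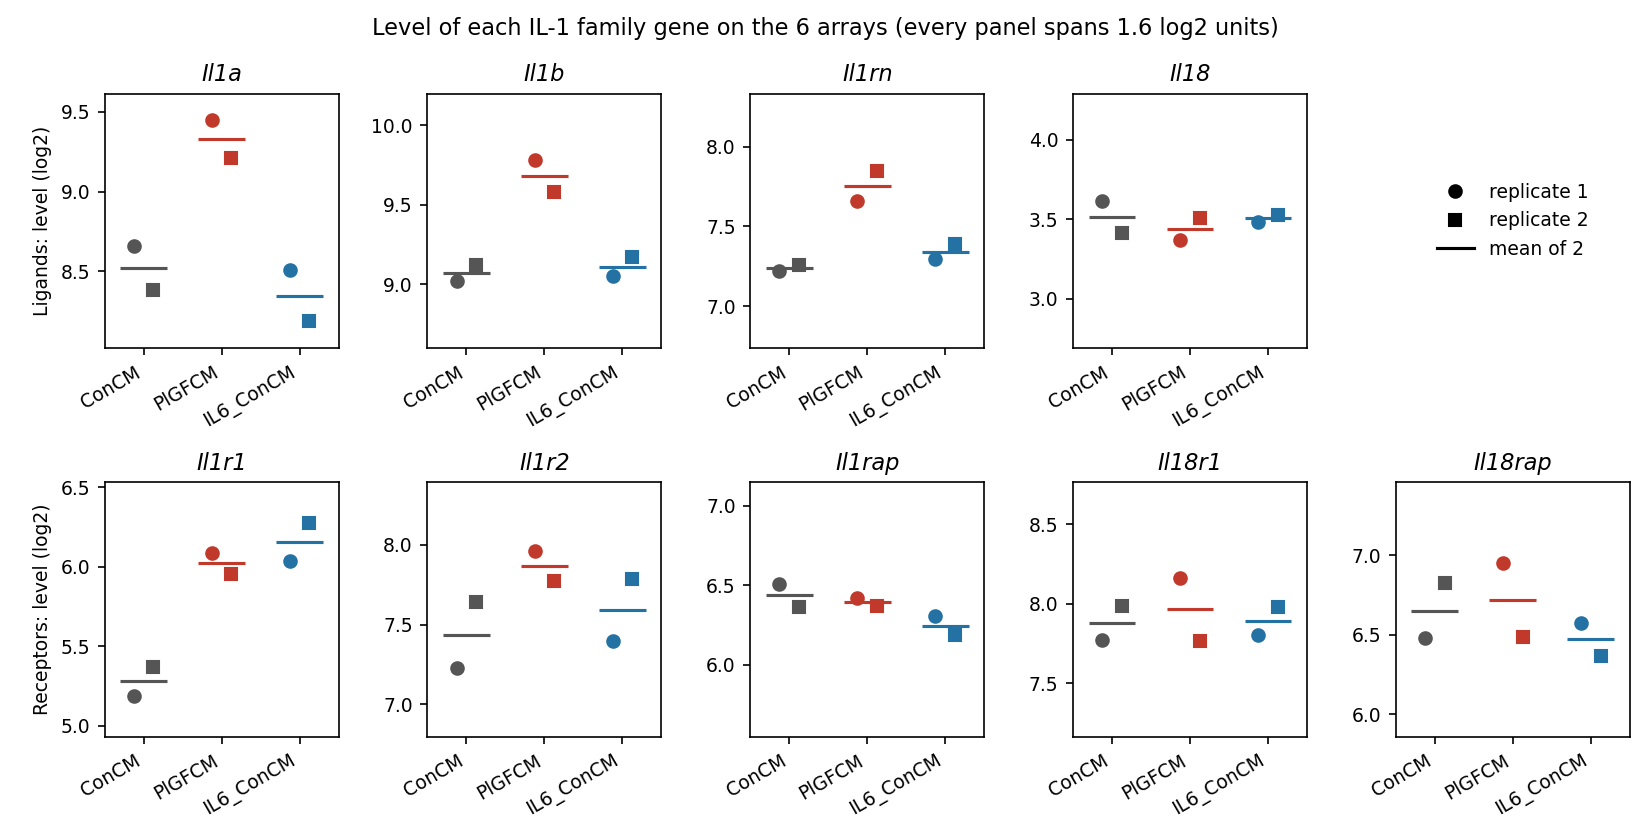
Log2 level (vertical axis, each panel spanning 1.6 log2 units) of the 9 measured IL-1 family genes on each array, ligands above and receptors below, with replicate 1 as circles, replicate 2 as squares and the mean of 2 as a line. Il1a, Il1b and Il1rn are higher on both PlGFCM arrays than on the other 4, and Il1r1 is lower on both ConCM arrays than on the other 4.

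Among the ligands, Il1a encodes IL-1α, which is active also as the uncleaved precursor. Its log2 level was 8.66 and 8.38 (ConCM), 9.45 and 9.21 (PlGFCM) and 8.51 and 8.18 (IL6_ConCM). Both PlGFCM arrays were above all 4 others, and the ConCM and IL6_ConCM arrays overlapped. From 8.52 ± 0.19 (SD, n = 2) in ConCM to 9.33 ± 0.17 in PlGFCM, the log2 change was 0.81 ± 0.13 (SE), with a limma adjusted p of 0.0223. IL6_ConCM was at -0.17 ± 0.13 from ConCM (adjusted p = 0.988), with a 95% interval from -0.45 to 0.11. The difference between PlGFCM and IL6_ConCM was 0.98 ± 0.13, with a limma adjusted p of 0.0282. The increase over ConCM did not pass without ConCM replicate 2 (adjusted p = 0.180) or either PlGFCM array (0.233 without replicate 1 and 0.127 without replicate 2). The limma call on the difference from IL6_ConCM was lost without PlGFCM replicate 1 (adjusted p = 0.327), PlGFCM replicate 2 (0.267) or IL6_ConCM replicate 2 (0.129).

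Il1b encodes IL-1β, whose precursor is cut by caspase-1 before it is active. Its log2 level was 9.02 and 9.12 (ConCM), 9.78 and 9.58 (PlGFCM) and 9.05 and 9.17 (IL6_ConCM), so that the PlGFCM arrays again stood above all others. The log2 change of PlGFCM over ConCM was 0.61 ± 0.09 (SE), with a limma adjusted p of 0.0155. IL6_ConCM differed from ConCM by 0.04 ± 0.09 (adjusted p = 1.000, 95% interval -0.15 to 0.23). Set directly against IL6_ConCM, PlGFCM was 0.57 ± 0.09 higher, which did not pass (adjusted p = 0.0890). The increase over ConCM lost its call on leaving out any single one of the 4 arrays, at log2 changes from 0.51 to 0.71.

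Il1rn, the receptor antagonist, had a log2 level of 7.22 and 7.26 (ConCM), 7.66 and 7.85 (PlGFCM) and 7.30 and 7.39 (IL6_ConCM). Its PlGFCM arrays were likewise the highest of the 6. The log2 change over ConCM was 0.51 ± 0.10 (SE), which did not pass (limma adjusted p = 0.0665). It passed in 1 of 18 alternatives, in which only the genes with levels from the median up were tested (limma adjusted p = 0.0358), and was 0.42 without PlGFCM replicate 2. Against IL6_ConCM it was 0.41 ± 0.10 higher (adjusted p = 0.486), and IL6_ConCM was 0.10 ± 0.10 from ConCM (adjusted p = 0.997).

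Il18, the IL-18 gene, had log2 levels from 3.37 to 3.61 over the 6 arrays, in the range of the olfactory receptor genes, and its groups overlapped in all 3 comparisons. Its log2 changes were -0.08, -0.01 and -0.07 for PlGFCM over ConCM, IL6_ConCM over ConCM and PlGFCM over IL6_ConCM, with standard errors of 0.15. At this level the array could not show whether Il18 changed.

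Of the 4 ligands, 2 thus rose in PlGFCM over ConCM and 0 fell, where 0.352% of all genes rose, 0.0812% fell and 0.433% did either, and the median log2 change was 0.56 against -0.01 over all genes. Groups did not overlap, with PlGFCM higher, for 3 of the 4, where this held for 17.3% of all genes, and 3 had an unadjusted p under 0.05, where 8.74% of all genes had one. In IL6_ConCM over ConCM 0 of the 4 passed in limma and 0 had an unadjusted p under 0.05, with a median of 0.02, where 0.113% and 5.62% of all genes did. The groups lay apart, IL6_ConCM higher, for 1 of the 4, Il1rn, and for 15.7% of all genes. In PlGFCM over IL6_ConCM 1 of the 4 rose, where 0.0316% of all genes did, 3 lay apart with PlGFCM higher, where 15.2% did, 3 had an unadjusted p under 0.05, where 4.37% did, and the median was 0.49 against -0.00 over all genes. Il1a was thus 1 of 7 genes that passed in that comparison. The comparisons share arrays, so their values are not independent of each other.

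**Figure D2:**
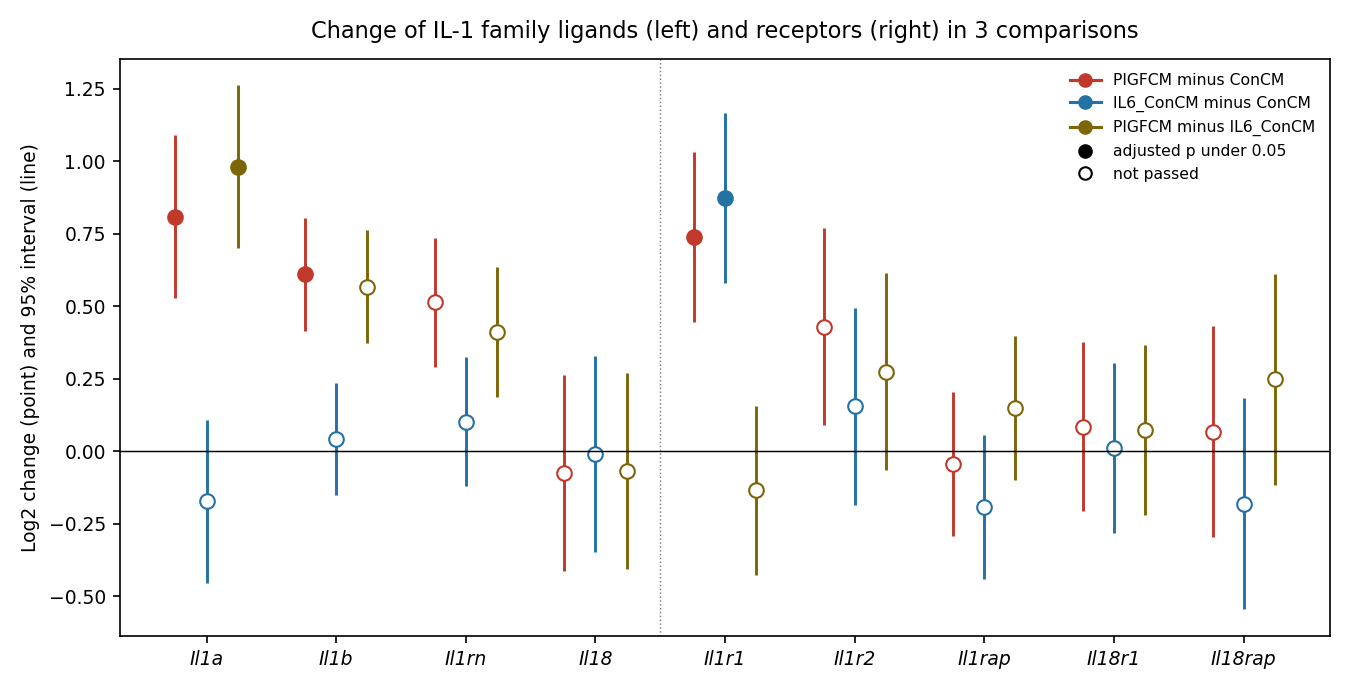
Log2 change (points) with its 95% interval from limma (lines) for each measured IL-1 family gene, ligands left and receptors right of the dotted line, in the 3 comparisons. Filled points passed (adjusted p under 0.05): Il1a, Il1b and Il1r1 for PlGFCM minus ConCM, Il1r1 for IL6_ConCM minus ConCM, and Il1a for PlGFCM minus IL6_ConCM.

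Among the receptors, Il1r1 encodes the signalling chain that binds both IL-1α and IL-1β. Its log2 level was 5.19 and 5.37 (ConCM), 6.09 and 5.95 (PlGFCM) and 6.04 and 6.27 (IL6_ConCM). Both ConCM arrays were below the other 4, and the arrays of PlGFCM and IL6_ConCM overlapped. The log2 change over ConCM was 0.74 ± 0.13 (SE) in PlGFCM, with a limma adjusted p of 0.0401, and 0.87 ± 0.13 in IL6_ConCM, with 0.0342. Both comparisons use the same ConCM arrays, which were under the olfactory receptor genes' 95th percentile of 5.38, so the sizes are differences of array levels and not a measured fold of RNA. PlGFCM differed from IL6_ConCM by -0.13 ± 0.13 (adjusted p = 0.998), with a 95% interval from -0.43 to 0.16. The PlGFCM call was lost without any 1 of the 4 arrays compared, with changes from 0.65 to 0.83, and the IL6_ConCM call without any 1 of the 6, with changes from 0.76 to 0.99. With the replicate number as a block neither call held (limma adjusted p = 0.0687 and 0.0723), and with the arrays of the compared groups alone the IL6_ConCM call was lost (adjusted p = 0.0806).

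Il1r2, the decoy receptor, had a log2 level of 7.23 and 7.64 (ConCM), 7.96 and 7.77 (PlGFCM) and 7.40 and 7.79 (IL6_ConCM). Its PlGFCM arrays lay above those of ConCM but overlapped those of IL6_ConCM. The log2 change of PlGFCM over ConCM was 0.43 ± 0.15 (SE), which did not pass (limma adjusted p = 0.406), and the other comparisons gave 0.16 ± 0.15 for IL6_ConCM over ConCM and 0.27 ± 0.15 for PlGFCM over IL6_ConCM. Without ConCM replicate 1 the change over ConCM was 0.22, and without ConCM replicate 2 it was 0.64. The spread within ConCM and IL6_ConCM, SDs of 0.29 and 0.27, was larger than the SDs of Il1a and Il1r1, which were 0.10 to 0.23.

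Il1rap, the accessory chain without which IL-1R1 does not signal, was at 6.51 and 6.37 (ConCM), 6.42 and 6.37 (PlGFCM) and 6.30 and 6.19 (IL6_ConCM). Its IL6_ConCM arrays were the lowest of the 6, at a log2 change of -0.19 ± 0.11 (SE) from ConCM (limma adjusted p = 0.981). Its 2 other probe sets were at mean log2 levels of 3.40 and 4.17. PlGFCM differed from ConCM by -0.04 ± 0.11, which did not pass (limma adjusted p = 0.955), with a 95% interval from -0.29 to 0.21.

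The IL-18 receptor genes varied as much within groups as between them. Il18r1, the binding chain, was at 7.77 and 7.99 (ConCM), 8.16 and 7.77 (PlGFCM) and 7.80 and 7.98 (IL6_ConCM). Il18rap, the signalling partner, was at 6.48 and 6.83 (ConCM), 6.95 and 6.49 (PlGFCM) and 6.57 and 6.37 (IL6_ConCM). For both genes all groups overlapped. Their log2 changes of PlGFCM over ConCM were 0.08 ± 0.13 (SE) and 0.07 ± 0.17, with limma adjusted p of 0.918 and 0.952, and the sign of both turned without ConCM replicate 1 or PlGFCM replicate 1.

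Of the 5 receptors measured, 1 rose in PlGFCM over ConCM, with a median log2 change of 0.08, and 1 rose in IL6_ConCM over ConCM, with a median of 0.01, where 0.352% and 0.0857% of all genes rose. None of the 5 fell in these comparisons, where 0.0812% and 0.0271% of all genes fell. In both cases it was Il1r1. In PlGFCM over ConCM 2 of the 5, Il1r1 and Il1r2, had an unadjusted p under 0.05 and groups that lay apart with PlGFCM higher, where 8.74% and 17.3% of all genes did. In PlGFCM over IL6_ConCM 0 of 5 passed in limma and 0 had an unadjusted p under 0.05, where 0.0316% and 4.37% of all genes did, and the median was 0.15. Of the neighbouring genes on chromosome 1, Il1r2, Il1rl2, Il18r1 and Il18rap did not pass in any comparison, and Il1rl2, the IL-36 receptor, had log2 changes of 0.11 and 0.20 over ConCM in PlGFCM and IL6_ConCM.

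**Figure D3:**
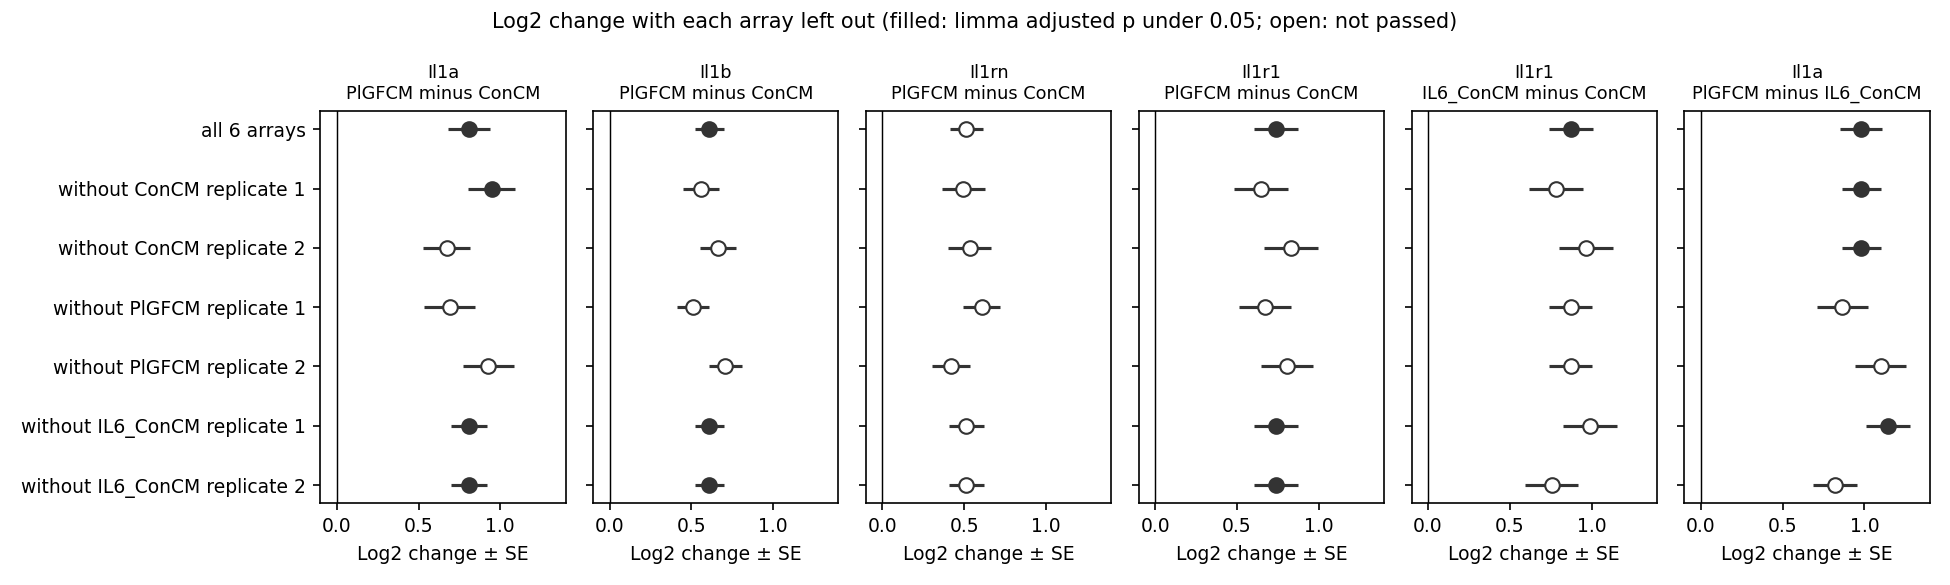
Log2 change ± SE (horizontal axis) of Il1a, Il1b, Il1rn and Il1r1 in the comparisons named above each panel, with all 6 arrays and with each array left out in turn; filled points passed limma's adjusted p of 0.05. Values run from 0.42 to 1.14 over the panels, and many of the calls are lost with 1 array fewer. The groups compared do not overlap for these genes, so leaving out 1 array could not turn a sign.

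Markers of myeloid cells, the best known source of IL-1, were measured beside the ligands. Of 14 myeloid genes 0 rose and 1 fell in PlGFCM over ConCM in limma, and 5 had an unadjusted p under 0.05, 4 of them higher. Of all genes 0.352% rose, 0.0812% fell and 8.74% had such a p. Positive log2 changes were seen for 8 of the 14 myeloid genes and for 46.4% of all genes. The log2 of the myeloid genes' summed linear level was 11.12 and 11.13 (ConCM), 11.23 and 11.22 (PlGFCM) and 11.17 and 11.12 (IL6_ConCM), so it was highest on the PlGFCM arrays. A sum of linear levels is set mostly by the brightest genes, here above all Ly6c2 at 9.31 to 9.61 (log2). Such a sum does not measure the amount of a cell type. Cd14, a co-receptor for bacterial lipopolysaccharide on monocytes and macrophages, was at 6.25 and 6.26 (ConCM), 6.95 and 6.91 (PlGFCM) and 6.01 and 6.45 (IL6_ConCM), and its log2 change of 0.67 over ConCM did not pass (limma adjusted p = 0.0806). Clec7a, the beta-glucan receptor, fell by 0.60 on the log2 scale (limma adjusted p = 0.0383), a call that was lost without ConCM replicate 2 or either PlGFCM array, with array medians subtracted and with the replicate number as a block. The neutrophil gene S100a8, at 2.98 to 3.24, was below the median of the olfactory receptor genes on every array. Lyz2, Itgam and S100a9 were under those genes' upper percentile of 5.38 on every array, and Adgre1 was under it on some. No change of RNA can be read from such levels. The myeloid genes Cd14, Csf1r, Cd68, Fcgr1, Ly6c2, Clec7a, Mpeg1, Tyrobp and Fcer1g were above it on every array. No myeloid marker passed in IL6_ConCM over ConCM or PlGFCM over IL6_ConCM, where 0 and 5 had an unadjusted p under 0.05. Of all genes 5.62% and 4.37% had such a p in these comparisons, and 0.113% and 0.0316% passed. Of 7 B cell genes 0 rose and 1 fell in PlGFCM over ConCM, and the other 6 had positive log2 changes. The one that fell was Ms4a1, the CD20 gene, at -0.84 (limma adjusted p = 0.0125), a call lost on leaving out any single one of the 4 arrays. The calls of Clec7a and Ms4a1 were also lost without an intensity trend and with all probe sets of the table tested. The log2 of the B cell genes' summed level was 9.39 and 9.34 (ConCM), 9.55 and 9.49 (PlGFCM) and 9.40 and 9.37 (IL6_ConCM), also highest on the PlGFCM arrays. That of the dendritic cell genes was 10.04 and 10.14 (ConCM), 10.06 and 9.92 (PlGFCM) and 9.92 and 10.07 (IL6_ConCM). Negative log2 changes in PlGFCM over ConCM were seen for 5 of 7 dendritic cell genes and 4 of 5 NK and CD8 T cell genes. They were seen for 2 of 6 mast cell and basophil genes, and for 11889 of all 22180 genes. Among these markers Xcr1, Ncr1, Klrb1c, Klrk1, Fcer1a, Ms4a2, Cpa3, Mcpt8 and Hdc were under 5.38 on every array. No change of RNA can be read from the signs of those genes. The part of any of these cell types in the rise of Il1a and Il1b was not tested.

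The genes whose 6 array values were nearest to those of a family gene were found by the root mean square difference of the values centred on each gene's mean, as a description over 6 arrays. Nearest to Il1a was Clec4e, which encodes the myeloid receptor Mincle, at a difference of 0.11 log2 units, where Il1a itself deviated from its mean by 0.45. Its log2 level was 5.84 and 5.62 (ConCM), 6.55 and 6.61 (PlGFCM) and 5.63 and 5.54 (IL6_ConCM). After Clec4e followed Cpd, Mir302b, Olfr1446 and Cpt1a, the last of which imports fatty acids into mitochondria. Nearest to Il1b were Olfr1501, Ttc39b, Mir450-1, Nipal1 and Slc25a20, the carnitine carrier of mitochondria, at differences from 0.04 to 0.08. Nearest to Il1r1 were Tnfrsf23, a decoy receptor for TRAIL, the inhibitory receptor gene Tigit, Neb, Flot1 and Olfr851, at differences from 0.08 to 0.15. Tnfrsf23 was at 7.96 and 8.01 (ConCM), 8.76 and 8.58 (PlGFCM) and 8.58 and 8.78 (IL6_ConCM). Among these nearest genes were 3 olfactory receptor genes.

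Further members of the family had small log2 changes. Of 7 measured, 0 passed in any of the 3 comparisons in limma and 0 had an unadjusted p under 0.05. Of all genes 8.74%, 5.62% and 4.37% had such a p in PlGFCM over ConCM, IL6_ConCM over ConCM and PlGFCM over IL6_ConCM. In the same order 0.433%, 0.113% and 0.0316% of all genes passed. Il33, the alarmin of the Il1rl1 receptor, had a log2 change of -0.28 ± 0.14 (SE) in PlGFCM and -0.26 ± 0.14 in IL6_ConCM over ConCM, at log2 levels of 4.48 to 4.90, which lie within the range of the olfactory receptor genes, so that no change of RNA can be read from them. Sigirr, an inhibitory member of the receptor family, was at 0.18 and 0.16. Between PlGFCM and IL6_ConCM the smallest p-values were those of Il1f10, the IL-38 gene, at -0.13 and Il18bp, the IL-18 binding protein, at 0.11.

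The list of genes that process and release IL-1β and IL-18, among them the inflammasome, held 16 measured members, and 0 of them passed in any comparison in limma. Those with an unadjusted p under 0.05 numbered 0 in PlGFCM over ConCM, 1 in IL6_ConCM over ConCM and 0 in PlGFCM over IL6_ConCM. Of all genes 8.74%, 5.62% and 4.37% had such a p, and 0.433%, 0.113% and 0.0316% passed. The medians of the list were -0.01, -0.05 and 0.07. Nlrp1a, Nlrp1b and Gsdme had log2 levels of 3.64 to 4.64 on all arrays, under the olfactory receptor genes' 95th percentile of 5.38, so no change of RNA can be read from their values. Txnip, a thioredoxin-binding protein linked to the NLRP3 inflammasome, was at 0.23 and Gsdme, a pore-forming gasdermin, at 0.18 in PlGFCM over ConCM. The inflammasome sensors Nlrp1a and Nlrp1b were at -0.39 and -0.30 in IL6_ConCM over ConCM. Gsdmd, the gasdermin through which IL-1β leaves cells, and the channel gene Panx1 were at 0.22 and 0.17 in PlGFCM over IL6_ConCM. Casp1, the protease that cuts pro-IL-1β, was outside the naming rule and is given for its role, at -0.13 in PlGFCM and -0.29 in IL6_ConCM over ConCM.

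Of the IL-1 receptor signalling list, 28 genes were measured. Map3k8, the kinase TPL2 that links NF-kappaB p105 to the ERK pathway, rose in both media, from 9.73 and 9.50 in ConCM to 10.14 and 10.06 in PlGFCM and 10.19 and 10.21 in IL6_ConCM. Its log2 changes were 0.48 ± 0.08 (SE) and 0.58 ± 0.08, with limma adjusted p of 0.0287 and 0.0186, and as for Il1r1 the ConCM arrays were the lowest. The PlGFCM call was lost without ConCM replicate 2 or either PlGFCM array, and the IL6_ConCM call was lost without ConCM replicate 2 or any 1 of the PlGFCM and IL6_ConCM arrays. Both calls were also lost without an intensity trend and with all probe sets of the table tested. The IL6_ConCM call was lost too with the arrays of the compared groups alone. The other 27 did not pass. Of all genes 0.352% rose in PlGFCM and 0.0857% in IL6_ConCM over ConCM. Traf6, the ubiquitin ligase downstream of the receptor, had its highest values on the PlGFCM arrays, with 9.42 and 9.35 (ConCM), 9.66 and 9.84 (PlGFCM) and 9.30 and 9.37 (IL6_ConCM), a change of 0.37 over ConCM (adjusted p = 0.0927) and of 0.41 over IL6_ConCM (adjusted p = 0.199). The adaptor gene Myd88 was at 0.21 and 0.19 in the same comparisons, and Peli1, a ubiquitin ligase, was at 0.22 in IL6_ConCM over ConCM. The list's median was 0.09 in PlGFCM over ConCM and 0.01 in IL6_ConCM over ConCM.

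On the list of NF-kappaB feedback and IL-1 target genes, 1 of 18 rose in PlGFCM over ConCM, where 0.352% of all genes rose. A positive log2 change was found for 15 of 18, where 46.4% of all genes were positive, and the median was 0.17. An unadjusted p under 0.05 was found for 8 of 18, all higher, where 8.74% of all genes had one. The gene that rose was Ier3, an early response gene that NF-kappaB induces, from 8.74 and 8.79 to 9.70 and 9.33, a log2 change of 0.75 ± 0.12 (SE) with a limma adjusted p of 0.0208. Its call was lost without either ConCM array or PlGFCM replicate 1, or with the replicate number as a block. That call was also lost without an intensity trend and with all probe sets of the table tested. Bcl3, an atypical member of the family of NF-kappaB inhibitors, was at 0.34 (limma adjusted p = 0.0806), and at 0.26 in IL6_ConCM over ConCM (limma adjusted p = 0.408). In IL6_ConCM over ConCM 0 of 18 passed in limma, where 0.113% of all genes did, and 3 had an unadjusted p under 0.05, where 5.62% did. A positive change was found for 11 of 18, where 46.9% of all genes had one. Ier3 stood at 0.55 there and Il6 at -0.58, with limma adjusted p of 0.147 and 0.379. In PlGFCM over IL6_ConCM 0 of 18 passed, where 0.0316% of all genes did, and 6 had an unadjusted p under 0.05, where 4.37% did. All 18 had a positive log2 change, where 49.1% of all genes were positive. Il6, the gene of the cytokine that was added to IL6_ConCM, had log2 levels of 5.22 and 5.65 (ConCM), 5.86 and 5.74 (PlGFCM) and 4.84 and 4.88 (IL6_ConCM). Both IL6_ConCM arrays and 1 ConCM array were under the olfactory receptor genes' 95th percentile, so the size of its difference between PlGFCM and IL6_ConCM, 0.94 in array level (limma adjusted p = 0.107), is uncertain. Tnip1, a partner of the NF-kappaB inhibitor A20, was at 0.30 in that comparison.

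Among the 17 measured T cell genes listed as readouts of IL-1, IL-18 and IL-33, 1 rose in PlGFCM over ConCM, where 0.352% of all genes rose. It was Il17f, a Th17 cytokine gene, which went from 6.67 and 6.69 to 7.80 and 7.64. Its log2 change was 1.04 ± 0.14 (SE), with a limma adjusted p of 0.0103, and that call was lost on leaving out any single one of the 4 arrays. The call was also lost without an intensity trend and with all probe sets of the table tested. In IL6_ConCM Il17f was at 0.71 (adjusted p = 0.108). Il21, a cytokine gene of Th17 and follicular helper cells, was at 0.74 in PlGFCM and 0.83 in IL6_ConCM over ConCM, and Tbx21, the Th1 factor, was at -0.52 in IL6_ConCM over ConCM. In PlGFCM over IL6_ConCM the smallest p-values were those of the transcription factor gene Irf4 at 0.27 and of Ifng, interferon gamma, at 0.53. None of these passed, with limma adjusted p of 0.271 and 0.339 for Il21, 0.230 for Tbx21, 0.468 for Irf4 and 0.998 for Ifng. In IL6_ConCM over ConCM and PlGFCM over IL6_ConCM 0 of 17 passed in limma, with 5 and 4 at an unadjusted p under 0.05. Of all genes 0.113% and 0.0316% passed there, and 5.62% and 4.37% had such a p.

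**Figure D4:**
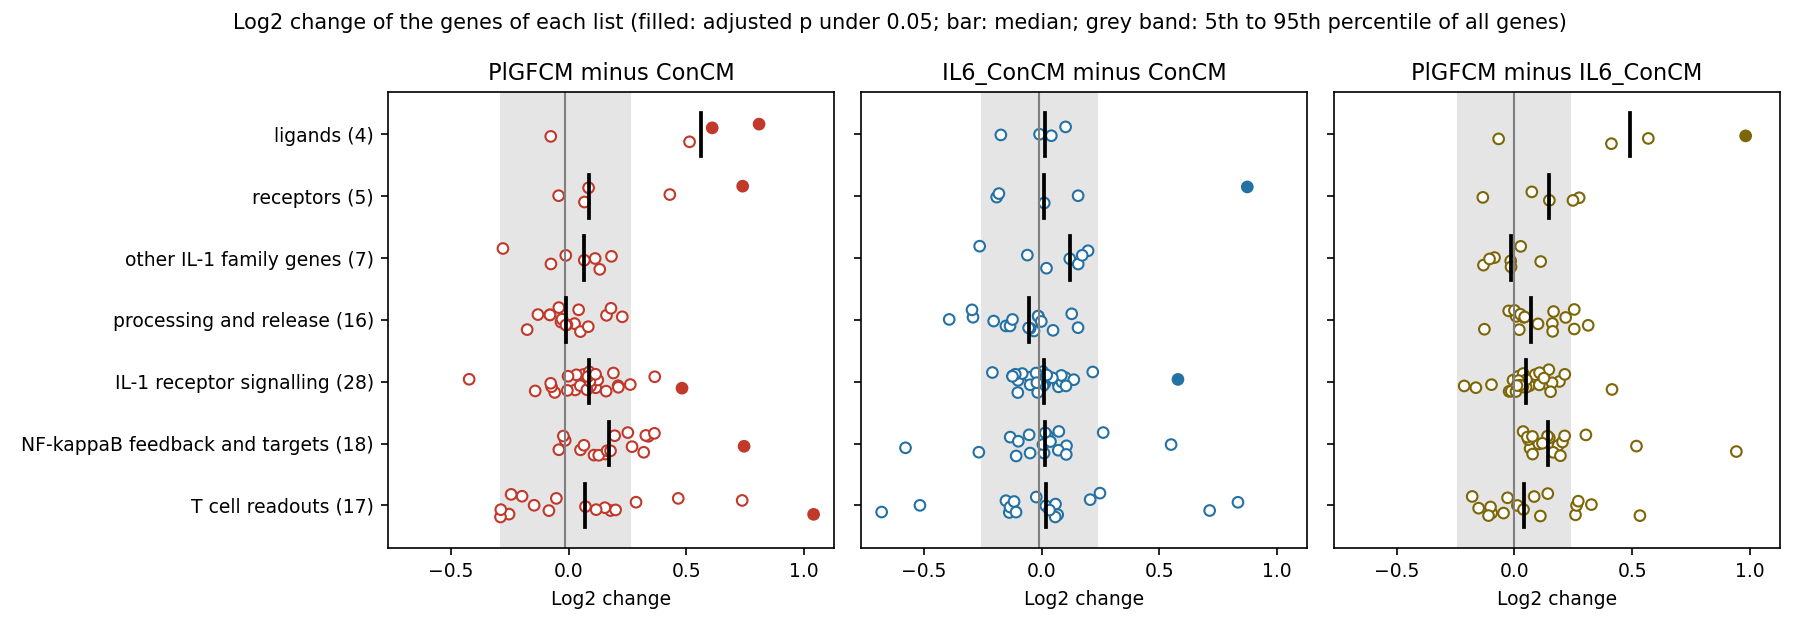
Log2 change (horizontal axis) of each measured gene of 7 lists around the IL-1 family in the 3 comparisons, with the number of genes in parentheses; filled points passed (adjusted p under 0.05), black bars are medians, and the grey band spans the 5th to the 95th percentile of all 22180 genes. The ligand median is 0.56 in PlGFCM minus ConCM and 0.02 in IL6_ConCM minus ConCM, and the points that passed outside the family are Map3k8, Ier3 and Il17f.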

How the data were processed

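Total RNA of 6 samples was measured on Affymetrix whole-transcript arrays. The values deposited by the authors are log2 levels, 1 per probe set and array. The submitters' processing notes name Transcriptome Analysis Console. For its version, the background correction, the normalization and the build, nothing is stated in the labels. That the scale is log2 was inferred from their range. No normalization was added. Precision is limited by the number of arrays.

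Of 41345 probe sets, 23521 have 1 gene symbol, 1814 have several and were left out, and 16010 are unnamed here. With the brightest probe set per gene 22180 genes were tested, with no filter on low levels, by limma 3.58.1 in R 4.3.3 (lmFit, eBayes with an intensity trend, all 6 arrays, 3 residual degrees of freedom, prior 8.14). The fit was tested on data simulated from its own variance model, which cannot show whether the intensity trend suits these arrays. Whether replicates are separate animals or cultures is not in the labels, so that p-values reflect a spread among samples that may be technical. The 2 PlGFCM samples differed in Xist (log2 level 3.58 and 8.38), so at least these were not the same RNA sample. With 2 arrays a group, exact permutation reaches no two-sided p under 1 in 3. The family genes, lists and rules were chosen with earlier results of these data known. The rule names all family genes, from each further list the genes that passed, filled to 2 by smallest p, and the 5 genes nearest to each family gene that passed. Promoter sequences are from RefSeq (GRCm38.p6), in which all 10 family genes were found. Alternatives covered normalization, filters, probe set choice, the prior, array weights, a replicate block and each array left out.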

Additional observations from a re-analysis of the deposited data

How the results depend on the processing

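For Il1a, Il1b, Il1rn and Il1r1 in PlGFCM over ConCM the groups did not overlap. The same held for Il1r1 in IL6_ConCM over ConCM and for Il1a in PlGFCM over IL6_ConCM. Leaving out 1 array thus could not turn the sign of these log2 changes, which were positive in all alternatives. The level filters, the prior, array weights and the replicate block left the changes themselves as they were, so that only their calls could move. Of the 96, 25 and 7 genes that passed in PlGFCM over ConCM, IL6_ConCM over ConCM and PlGFCM over IL6_ConCM, the family held 3, 1 and 1. Without an intensity trend 6, 1 and 0 genes passed. With all probe sets of the table tested, an alternative chosen after seeing the data, 5, 0 and 0 passed. In both settings 0, 0 and 0 family genes passed. In the trend fit 1938, 1247 and 969 genes (8.74%, 5.62% and 4.37%) had an unadjusted p under 0.05. A share of 0.05 would be reached if no gene changed. Testing only genes with levels from the median up, 174 and 53 genes passed in the comparisons with ConCM, and from the 25th percentile up 53 passed in IL6_ConCM. In IL6_ConCM 12 genes passed with the arrays of the compared groups alone, and then 0 family genes, and 47 with array weights. With 1 array left out the counts ran from 12 to 107, from 2 to 41 and from 0 to 5 genes, and from 0 to 3, 0 to 0 and 0 to 1 family genes.

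Values near 0 turned sign when single arrays were left out. In PlGFCM over ConCM these were Il18 (-0.17 to 0.022), Il1rap (-0.11 to 0.030), Il18r1 (-0.11 to 0.28) and Il18rap (-0.17 to 0.30). In IL6_ConCM over ConCM they were Il1b (-0.018 to 0.10), Il18 (-0.11 to 0.090), Il1r2 (-0.051 to 0.36) and Il18r1 (-0.10 to 0.12), and in PlGFCM over IL6_ConCM Il18 (-0.14 to 0.0033) and Il18r1 (-0.12 to 0.27).

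The groups share replicate numbers 1 and 2. For same-numbered arrays, the deviations from their group means were correlated over genes. The values were -0.04 for ConCM with PlGFCM, 0.11 for ConCM with IL6_ConCM and 0.03 for PlGFCM with IL6_ConCM. Taken over all genes, they cannot show whether same-numbered arrays shared a batch or an animal. Il1a was higher in replicate 1 of every group. Its SE in PlGFCM over ConCM was 0.072 with the replicate number as a block and 0.128 without it. For Il1b these were 0.089 and 0.088. With the replicate block 62 and 16 genes passed in PlGFCM and IL6_ConCM over ConCM, of them 2 and 0 family genes, and 5 in PlGFCM over IL6_ConCM, Il1a among them. The causes of these differences between settings were not tested. With all probe sets of the table, the variance estimate changed along with the number of features. The SE of Il1a in PlGFCM over ConCM was then 0.151, against 0.128 in the main fit.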
